A study of Mus musculus with 15 samples.

Results

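The hearts of untreated male mice of 3 kinds were examined for 6 potassium channel genes: the inward rectifier genes Kcnj2, Kcnj3, Kcnj5, Kcnj12 and Kcnj14 and the two-pore domain channel gene Kcnk3. Their members were all probe sets annotated with 1 of these symbols, which gave 12 of the 45096 probe sets and 6 of the 18190 genes on the array. B6C3F1 is the first-generation cross of the inbred strains C3H (C3H/HeJ) and C57Bl/6 (C57BL/6J), and each of the 3 groups had 5 arrays, each labelled as a separate mouse. At an age of 7 weeks each mouse was given a radiotelemetry implant in the abdomen under tribromoethanol anaesthesia. No other agent was given, and the mice were 9 to 10 weeks old when a piece of the heart apex was taken, so that the values describe ventricular apex tissue of mice after surgery and not whole hearts.

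Inward rectifier channels pass potassium more easily into the cell than out of it. In ventricular muscle the Kir2 subunits Kir2.1 and Kir2.2 (Kcnj2 and Kcnj12) carry most of the current IK1, which holds the resting potential and completes repolarisation, while Kir2.4 (Kcnj14) belongs to the same family and is known mainly from nerve cells. Kcnj3 and Kcnj5 code for GIRK1 and GIRK4, the subunits of the acetylcholine-gated channel that slows the atria and the pacemaker when the vagus nerve releases acetylcholine, and Kcnk3 codes for TASK-1, an acid-sensitive background channel.

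Expression was read as the MAS5 signal, the Affymetrix measure that gives 1 value per probe set and array, and is given below as log2(signal + 16), a scale that understates the change of low genes. Each gene was read from 1 probe set, that with the highest mean, and tested with limma if that mean lay above the 40th percentile of all probe sets (5.74), with Benjamini-Hochberg adjustment over 13111 genes and a threshold of 0.05. Levels of different probe sets are not comparable with each other. All 10 ventricular cardiomyocyte markers, among them Myh6, Myl2 and Tnnt2, lay above that limit, and with limma 0 of them passed in any contrast. Between C3H and C57Bl/6, where 15.7% of all genes passed, 2 had an unadjusted p under 0.05. All but Ryr2 (0.18) were lower in C3H than in C57Bl/6, with a median difference of -0.20, beside -0.02 over all genes. The poly-A labelling controls averaged 8.54 ± 0.12 on the B6C3F1 arrays, 9.19 ± 0.65 on the C3H arrays and 8.58 ± 0.59 on the C57Bl/6 arrays (log2, SD, n = 5 each). C3H replicate 4 gave 10.34, and the other C3H arrays 8.79 to 9.05. The log2 ratio of the 3′ to the 5′ Gapdh control set, an RNA quality measure, also differed. It averaged 0.896 ± 0.21 in B6C3F1, 0.604 ± 0.26 in C3H and 0.852 ± 0.24 in C57Bl/6 (SD). Sample numbers in the titles run in 1 block per strain, so that handling order and strain cannot be told apart.

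Kcnj14, by its only probe set, and Kcnj3, by its brightest set, differed between strains, in opposite directions. The other Kcnj3 sets did not pass when every probe set was tested. Kcnj5, Kcnj12 and Kcnk3 did not pass in any contrast, and Kcnj2 could not be compared because its probe set was near the bottom of the array. Between the inbred strains 2 of 5 tested genes passed, against 15.7% of all genes. Between B6C3F1 and C57Bl/6 it was 1 of 5 (3.83% of all genes), between B6C3F1 and C3H 2 of 5 (6.2%), and between B6C3F1 and the mean of both parents 1 of 5 (0.633%). The contrasts share their arrays, and the genes were chosen with earlier results of these data known, so these counts are descriptions. The median difference of the 5 tested genes between C3H and C57Bl/6 was 0.01, beside -0.02 over all genes.

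**Figure D1:**
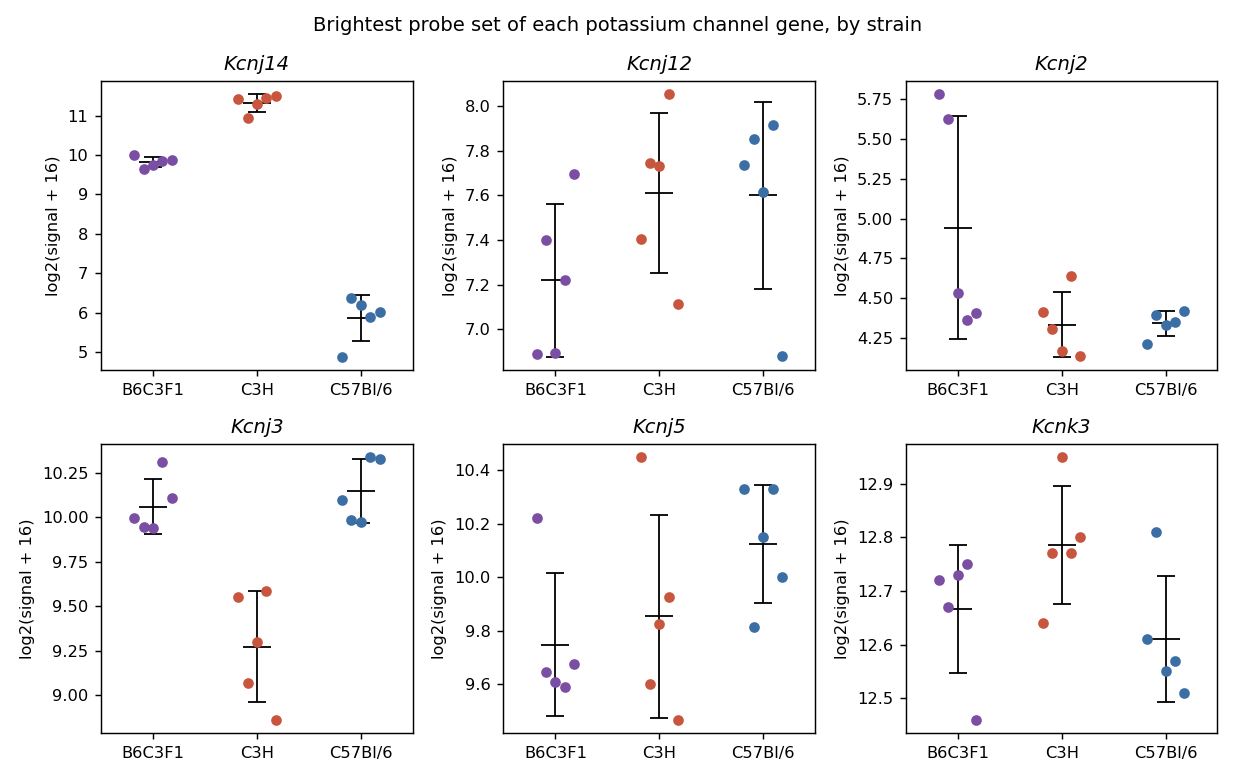
Signal of the brightest probe set of each of the 6 genes, as log2(signal + 16), with 1 point per mouse heart and the mean ± SD of 5 arrays in black; each panel has its own axis. Kcnj14 separated all 3 groups (9.83, 11.32 and 5.87 on average in B6C3F1, C3H and C57Bl/6), Kcnj3 was low on the 5 C3H arrays, and in the other 4 panels the groups overlapped.

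Kcnj14 codes for Kir2.4, the Kir2 subunit best known from neurons of the brainstem in the rat. Its probe set 1452243_at gave 10.00, 9.65, 9.74, 9.85 and 9.89 on the 5 B6C3F1 arrays. It gave 11.43, 10.94, 11.30, 11.45 and 11.49 on the C3H arrays and 4.87, 6.36, 6.20, 5.89 and 6.01 on the C57Bl/6 arrays. All C3H arrays lay above all B6C3F1 arrays, and all B6C3F1 arrays above all C57Bl/6 arrays, an order that 1.23% of all tested genes showed with B6C3F1 in the middle, in either direction. Arrays of a pair of strains did not overlap for 11.2% of all genes between C3H and C57Bl/6, for 6.16% between B6C3F1 and C57Bl/6 and for 6.4% between B6C3F1 and C3H.

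The difference of Kcnj14 between C3H and C57Bl/6 was 5.46 ± 0.20 (log2, SE, adjusted p = 1.75e-13), or 43.9-fold. B6C3F1 hearts were 15.6-fold higher than C57Bl/6 hearts (3.96 ± 0.20, adjusted p = 1.17e-10). Against C3H, Kcnj14 in B6C3F1 hearts fell by 1.50 ± 0.20 on the log2 scale (adjusted p = 9.95e-05). These values come from the only probe set of Kcnj14, so no other set could be compared with it. Where its probes bind, and whether the strains differ in sequence there, was not analysed here. In a bulk sample, more RNA per cell and more cells that express the gene cannot be told apart.

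The C57Bl/6 level of Kcnj14 was close to the background of the array. Its mean of 5.87 stood at the 41.5th percentile of all probe sets in that strain, where the C3H mean stood at the 93.0th and the B6C3F1 mean at the 84.6th. The size of the fold therefore depends on the constant added to the signal: with 1 in place of 16 the difference between C3H and C57Bl/6 was 5.94, and with 64 it was 4.59. The difference between B6C3F1 and C57Bl/6 was 4.43 with 1 and 3.15 with 64. Both passed in all of these settings.

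Kcnj14 was the member whose variance lay most between strains. Strain accounted for 98.0% of its variance over the 15 arrays, a share at the 99.9th percentile of all tested genes, of which the median was 23.6%. Its spread within strains (SD 0.37) was at the 70.1st percentile of all tested genes. The 3 genes whose values were most like those of Kcnj14 over the 15 arrays were Rab4a (Pearson r 0.99), Baiap2l1 (0.99) and Pdxdc1 (0.98). After the strain means were subtracted these correlations were 0.45, 0.19 and 0.18, so that what the 4 genes shared was mainly their strain means.

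Where the cross stood between its parents depended on the scale. On the log2 scale the 5 B6C3F1 arrays lay at 0.69 to 0.76 of the distance that separates the C57Bl/6 mean from the C3H mean (mean 0.73 ± 0.024, SD, n = 5). They exceeded the mean of the parental log2 means by 1.23 ± 0.18 (SE, adjusted p = 0.000828). On the linear scale the mean signal was 895 in B6C3F1, 2570 in C3H and 45.7 in C57Bl/6 hearts, and the linear mean of the parents was 1310. All 5 B6C3F1 arrays, at 789 to 1010, lay below that linear mean, and the difference was then -0.54 on the log2 scale, with no test. B6C3F1 hearts held 34.9% of the C3H signal, and the direction of the departure from the parental mean turns with the scale.

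**Figure D2:**
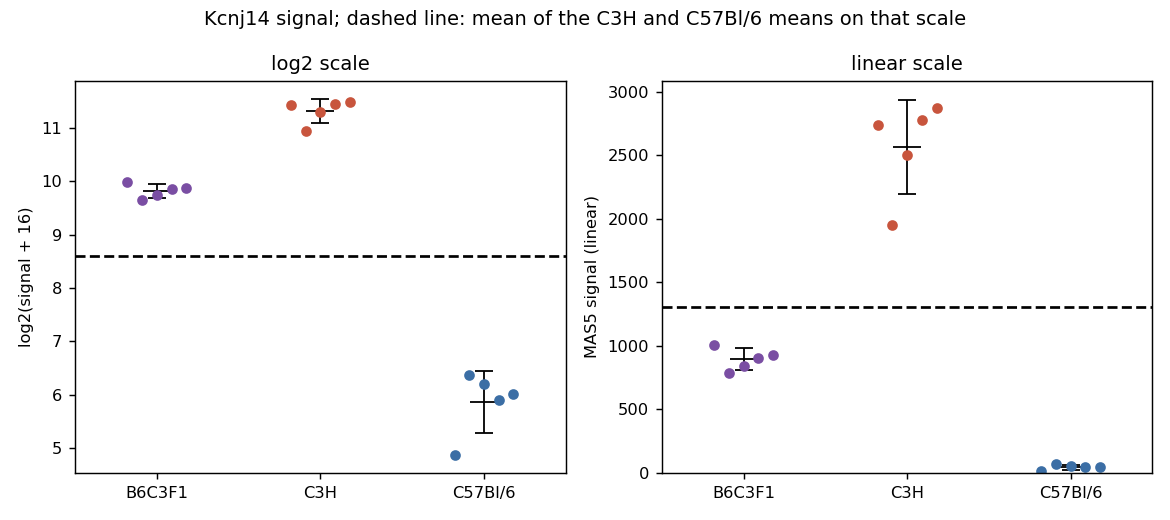
Kcnj14 signal in each heart on the log2(signal + 16) scale (left) and the linear MAS5 scale (right), with the mean ± SD of 5 arrays; the dashed line is the mean of the C3H and C57Bl/6 means on that scale. The 5 B6C3F1 points sit above the line on the left and below it on the right.

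Markers of nerve cells, in which Kir2.4 is best known, were set beside Kcnj14. Of 11 neuron markers 8 lay below the dim limit, among them Th, Prph, Chat and Snap25. The summed signal of the list was 9.47 to 10.21 in B6C3F1, 9.43 to 9.74 in C3H and 9.34 to 9.81 in C57Bl/6 hearts (log2 of the sum), and the ranges overlapped. Of the 3 tested neuron markers 0 passed between the inbred strains with limma (1 had an unadjusted p under 0.05), against 15.7% of all genes, and they differed by -0.70 (Uchl1), 0.37 (Dbh) and -0.17 (Stmn2). Of 5 tested markers of Schwann cells, which wrap nerve fibres, 1 passed between the inbred strains, against 15.7% of all genes. Cdh19 (0.39), S100b (0.20), Foxd3 (-0.09) and Sox10 (-0.28) did not pass. Mbp averaged 7.97 ± 0.19 in B6C3F1, 8.06 ± 0.37 in C3H and 7.18 ± 0.54 in C57Bl/6 hearts. It was higher in C3H than in C57Bl/6 by 0.88 (adjusted p = 0.0117). Among its 8 probe sets, others also passed between these strains with limma when every probe set was tested. They differed by 1.66 (adjusted p = 0.000507), 1.825 (adjusted p = 0.00411) and -1.13 (adjusted p = 0.0472). The set at 1.66 was also higher in B6C3F1 than in C57Bl/6, by 1.28 (adjusted p = 0.0267). No other Mbp set passed in that contrast, and the remaining sets did not pass between the inbred strains. The summed Schwann cell signal was 9.29 to 9.49 in B6C3F1, 9.17 to 9.63 in C3H and 8.57 to 9.42 in C57Bl/6 hearts, with overlap. The part of nerve and Schwann cells in the Kcnj14 values was not tested.

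The genes beside Kcnj14 on its chromosome showed no difference of that size. Of the nearest 5 genes with a probe set on each side in the GRCm38.p6 gene table, 7 were bright enough to be tested, and they differed between C3H and C57Bl/6 by -0.62 to 0.66. Grwd1, the nearest on one side, rose in C3H by 0.48 (adjusted p = 0.00627) and Kdelr1 fell by 0.33 (adjusted p = 0.0254). Cyth2, the nearest on the other side, differed by -0.07 (adjusted p = 0.771). Over the neighbours of all 6 channel genes 36 were tested, of which 7 were higher and 5 lower in C3H than in C57Bl/6 (33.3%, against 15.7% of all genes). The other neighbours that passed were Map2k6 and 2610035D17Rik beside Kcnj2, Gpd2 beside Kcnj3, Ets1 beside Kcnj5, Dhrs7b, Natd1 and Slc47a1 beside Kcnj12, and Gm9899, Slc35f6 and Cenpa beside Kcnk3.

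The other Kir2 genes gave no such pattern. Kcnj12, which codes for Kir2.2, was measured by probe set 1422871_at. It gave 6.89, 7.40, 6.89, 7.22 and 7.70 in B6C3F1, 7.40, 7.74, 7.73, 8.05 and 7.12 in C3H and 7.74, 7.85, 7.62, 7.91 and 6.88 in C57Bl/6 hearts. The 3 groups overlapped, and the lowest C57Bl/6 heart stood with the lowest B6C3F1 hearts. C3H and C57Bl/6 differed by 0.01 ± 0.23 (95% interval -0.47 to 0.49, adjusted p = 0.985), an interval wide enough to hold a change of either sign. B6C3F1 hearts differed by -0.38 from C57Bl/6 (adjusted p = 0.364) and by -0.39 from C3H (adjusted p = 0.374).

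Kcnj2 codes for Kir2.1, the best known subunit of ventricular IK1. The 1 probe set annotated to it, 1450503_at, had a mean of 4.54, at the 2.35th percentile of all probe sets, and was therefore not among the genes tested. It gave 5.78, 5.63, 4.53, 4.37 and 4.40 on the B6C3F1 arrays. The C3H arrays gave 4.41, 4.30, 4.17, 4.64 and 4.14, and the C57Bl/6 arrays 4.21, 4.39, 4.33, 4.35 and 4.42. The first and second B6C3F1 arrays were above all other arrays, at linear signals of 39.1 and 33.4 against at most 8.92 elsewhere. When every probe set was tested with no limit on brightness, Kcnj2 in B6C3F1 differed by 0.61 ± 0.29 from C3H (adjusted p = 0.381) and by 0.60 ± 0.29 from C57Bl/6 (adjusted p = 0.350). C3H and C57Bl/6 differed by -0.01 ± 0.29 (adjusted p = 0.994). A signal this low gives no ground to call Kir2.1 RNA equal or unequal among the strains.

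**Figure D3:**
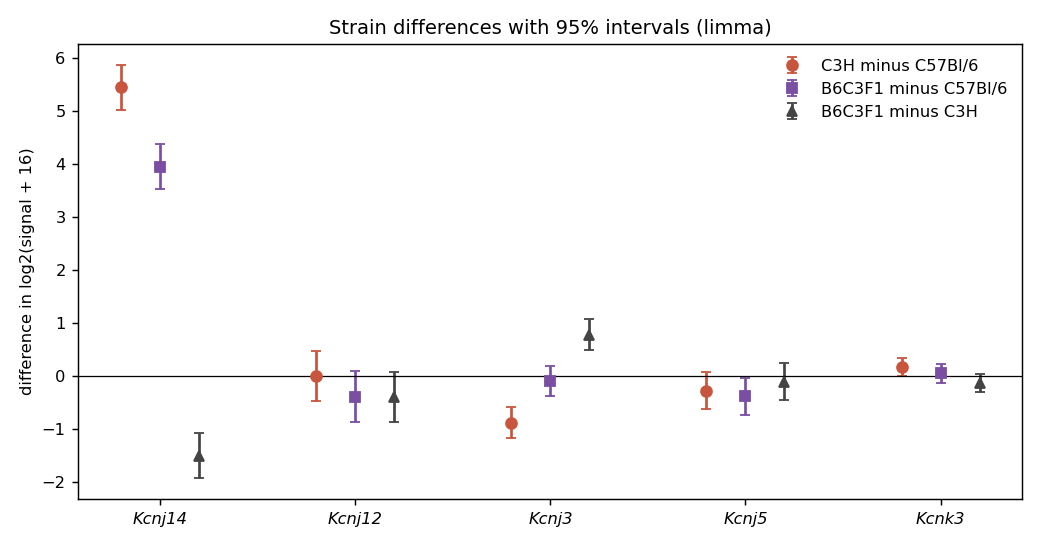
Differences of the 5 tested channel genes in log2(signal + 16), with 95% intervals from the limma fit over 15 arrays; circles are C3H minus C57Bl/6, squares B6C3F1 minus C57Bl/6 and triangles B6C3F1 minus C3H. Kcnj14 is far from 0 in all 3 contrasts, and Kcnj3 in both that involve C3H.

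The subunits of the acetylcholine-gated channel were considered next. Their genes lie on separate chromosomes, and the 250 bases before each start are shown because the subunits form 1 channel while the brightest probe set of Kcnj3 differed between strains and that of Kcnj5 did not pass. Of the 6 channel genes 4 matched an entry of the RefSeq promoter table (build GRCm38.p6, from C57BL/6J), and Kcnj14 and Kcnk3 did not. Kcnj3 is shown at chr2:55435720-55435969 (plus strand) and Kcnj5 at chr9:32344345-32344594 (minus strand), 5′ to 3′, with TTTAAA and GGGCGG on either strand in capitals.
Kcnj3: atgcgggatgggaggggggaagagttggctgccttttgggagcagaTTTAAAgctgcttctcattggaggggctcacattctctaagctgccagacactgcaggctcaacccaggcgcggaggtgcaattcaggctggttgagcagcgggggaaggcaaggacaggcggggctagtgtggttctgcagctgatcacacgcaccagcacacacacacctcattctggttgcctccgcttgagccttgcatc
Kcnj5: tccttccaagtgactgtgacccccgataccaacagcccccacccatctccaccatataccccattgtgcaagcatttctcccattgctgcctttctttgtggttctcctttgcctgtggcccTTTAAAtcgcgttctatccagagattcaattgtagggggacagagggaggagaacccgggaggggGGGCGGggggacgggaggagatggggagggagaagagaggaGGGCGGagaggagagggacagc
Each window held 1 TTTAAA, a motif picked after the sequences were seen and present in 12.1% of the 32851 windows of the same length in the table. GGGCGG, the core of the GC box, occurred 2 times before Kcnj5 and 0 times before Kcnj3, and in 32.7% of all windows. TATAAA occurred in neither (12.4% of all windows). The E-box CANNTG occurred 1 time before Kcnj3 and 2 times before Kcnj5 (66.2% of all windows). These letters are of the C57BL/6J reference, and C3H sequence was not analysed here.

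Kcnj3, the GIRK1 gene, was lower in C3H hearts by its brightest probe set, 1455374_at. That set gave 9.99, 9.94, 9.94, 10.31 and 10.11 in B6C3F1 hearts, and 9.55, 9.07, 9.30, 9.58 and 8.86 in C3H hearts. In C57Bl/6 hearts it gave 10.10, 9.98, 9.97, 10.34 and 10.33. All C3H arrays lay below all others, while B6C3F1 and C57Bl/6 overlapped. C3H and C57Bl/6 differed by -0.87 ± 0.14 (SE, adjusted p = 0.000122), which puts C3H at 0.546 of the C57Bl/6 signal. B6C3F1 was 1.73-fold higher than C3H (0.79 ± 0.14, adjusted p = 0.00117).

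The cross stood near C57Bl/6 in Kcnj3. The difference between B6C3F1 and C57Bl/6 was -0.08 ± 0.14 (95% interval -0.37 to 0.20, adjusted p = 0.777). The B6C3F1 arrays lay between -0.19 and 0.23 of that distance (0 is the C57Bl/6 mean and 1 the C3H mean; average 0.10 ± 0.18, SD, n = 5). Their departure from the mean of the parental log2 means, 0.35 ± 0.12, did not pass (adjusted p = 0.181). Strain held 79.0% of the variance of Kcnj3, at the 96.6th percentile of all genes. The genes most like Kcnj3 over the 15 arrays were Tmem267 (Pearson r 0.92, or 0.62 after the strain means were subtracted), Smc5 (0.92 and 0.64) and Zfp330 (0.92 and 0.50).

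The size of the Kcnj3 difference varied among its 4 probe sets. With every probe set tested on its own, 1444025_at differed between C3H and C57Bl/6 by -0.70 ± 0.26 (adjusted p = 0.123) and 1421468_at by -0.22 ± 0.20 (adjusted p = 0.633). Probe set 1444025_at averaged 7.57 ± 0.44 in B6C3F1, 7.48 ± 0.50 in C3H and 8.18 ± 0.44 in C57Bl/6 hearts (SD, n = 5 each), so that there the cross stood beside C3H and not beside C57Bl/6. Probe set 1421468_at averaged 8.03 ± 0.44, 7.87 ± 0.16 and 8.10 ± 0.27 in B6C3F1, C3H and C57Bl/6. The dim set 1444336_at, with a mean of 5.13 below the limit, differed by 0.25 ± 0.36 (adjusted p = 0.805). Over all 12 probe sets of the 6 genes 2 passed between the inbred strains (6.83% of all probe sets), namely those of Kcnj14 and the brightest of Kcnj3. Between B6C3F1 and C57Bl/6 it was 1 of 12 (1.48%), between B6C3F1 and C3H 2 of 12 (2.37%) and against the parental mean 1 of 12 (0.313%). After subtraction of strain means the brightest Kcnj3 set correlated with the others at -0.07 (1421468_at), 0.27 (1444025_at) and 0.23 (1444336_at) over 15 arrays, so that the sets did not follow each other closely from mouse to mouse. Where on the transcript each set binds was not analysed here.

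Kcnj5, the GIRK4 gene, did not pass in any contrast. Its brighter probe set, 1441590_at, gave 10.22, 9.65, 9.61, 9.59 and 9.68 in B6C3F1 hearts and 10.45, 9.60, 9.83, 9.92 and 9.47 in C3H hearts. In C57Bl/6 hearts it gave 10.33, 9.82, 10.15, 10.33 and 10.00. The groups overlapped, and the highest B6C3F1 array stood apart from the other 4 of that group. C3H and C57Bl/6 differed by -0.27 ± 0.17 (95% interval -0.62 to 0.08, adjusted p = 0.309). B6C3F1 differed by -0.38 ± 0.17 from C57Bl/6 (95% interval -0.73 to -0.029, adjusted p = 0.205) and by -0.10 ± 0.17 from C3H (adjusted p = 0.794). Without the highest B6C3F1 array, replicate 1, the difference from C57Bl/6 was -0.50 (adjusted p = 0.125). The second set, 1421762_at, averaged 5.65 ± 0.28 in B6C3F1, 5.97 ± 0.40 in C3H and 6.06 ± 0.31 in C57Bl/6 hearts, and differed by -0.10 between the inbred strains (adjusted p = 0.927). The residuals of Kcnj5 and Kcnj3 about their strain means correlated at 0.50 over 15 arrays, the highest of the 10 pairs of tested channel genes. The genes most like Kcnj5 were Nrd1 (r 0.90), Aldh5a1 (0.89) and Mettl7a1 (0.86), and those most like Kcnj12 were Chd3 (0.82), Pcmt1 (0.82) and Col27a1 (0.81).

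**Figure D4:**
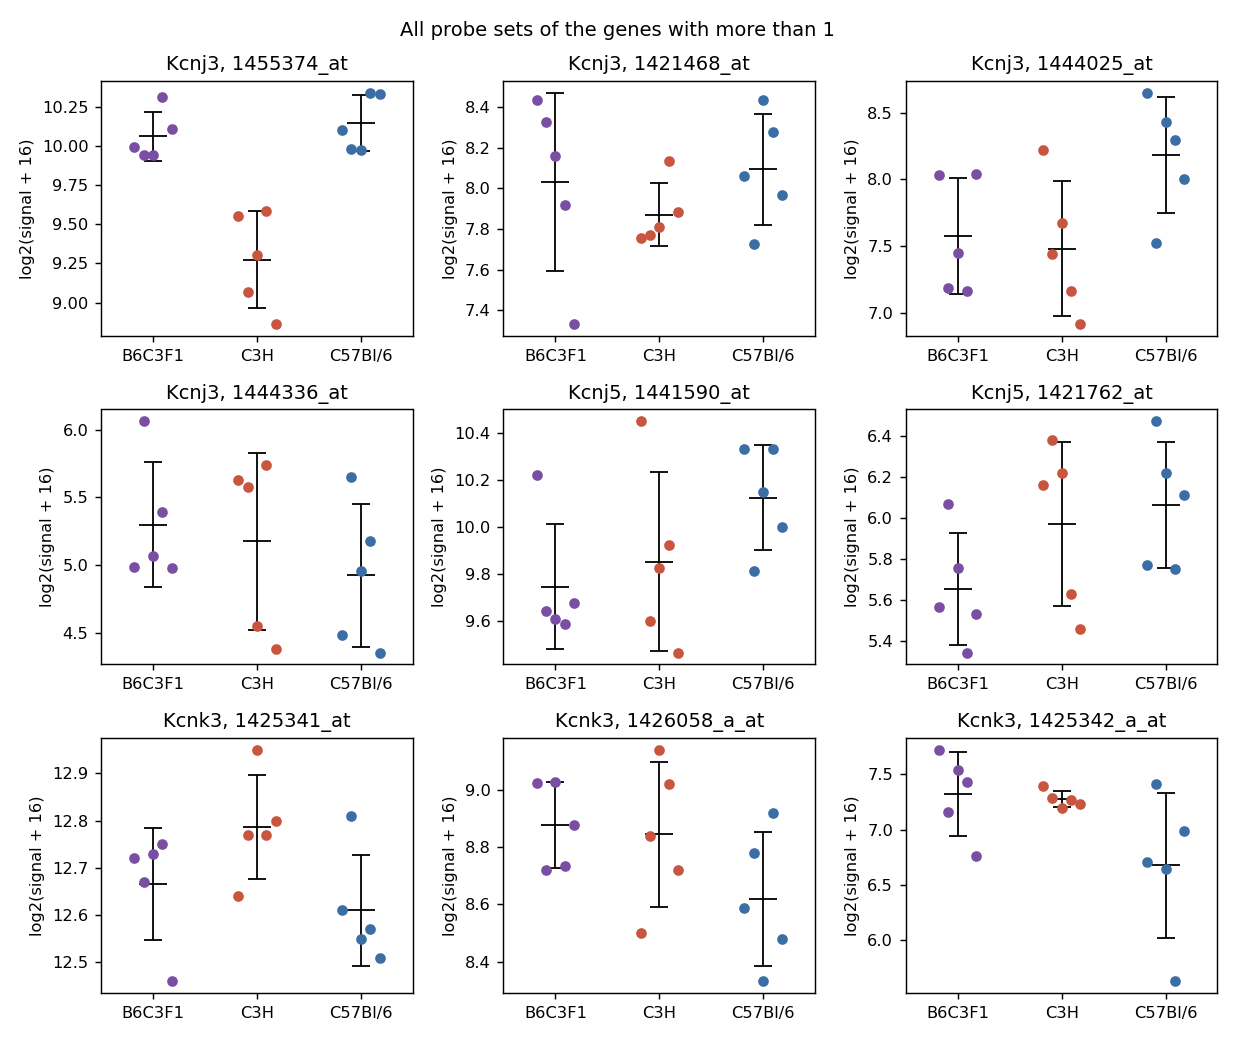
Signal of all 9 probe sets of Kcnj3, Kcnj5 and Kcnk3, as log2(signal + 16), with 1 point per heart and the mean ± SD of 5 arrays; each panel has its own axis. The C3H arrays are separate from the others in the panel of Kcnj3 1455374_at and overlap them in the other 8.

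Because GIRK channels belong mainly to atria and pacemaker tissue, the markers of these tissues were set beside Kcnj3. Of 10 atrial markers, Sln, Bmp10 and Fgf12 were below the dim limit, and the summed signal was 13.09 to 14.26 in B6C3F1, 13.25 to 14.36 in C3H and 12.97 to 13.42 in C57Bl/6 hearts. Of the 7 tested, 2 passed between C3H and C57Bl/6, against 15.7% of all genes. With limma, 5 of the 7 had an unadjusted p under 0.05. Myl4, a myosin light chain of atria and of the embryonic heart, rose by 1.16 in C3H against C57Bl/6 (adjusted p = 5.71e-06), with a second, dim set at -0.73 (adjusted p = 0.387 over all probe sets), and Kcna5, an ultrarapid potassium channel gene, fell by 0.93 (adjusted p = 0.00514). Nppa (0.82, adjusted p = 0.0703), Dkk3 (0.55), Myl7 (0.37) and Nr2f2 (0.37) were higher in C3H, as Myl4 was, but did not pass. Stard10 (-0.28, adjusted p = 0.131) was lower and did not pass either. The median difference of the 7 was 0.37, beside -0.02 over all genes. Nppa, the brightest of the tested atrial markers (13.29 in C3H hearts), weighs most in the atrial sum. Of the 9 conduction system markers on the array, Shox2, Isl1 and Gja5 were dim. Their summed signal was 12.35 to 12.69 in B6C3F1, 12.73 to 13.10 in C3H and 12.11 to 12.30 in C57Bl/6 hearts, highest in C3H. Irx3 and Nkx2-5, the brightest of the tested markers (11.67 and 11.75 in C3H hearts), weigh most in that sum. Of the 6 tested, 2 were higher in C3H than in C57Bl/6, where 7.25% of all genes were higher: Irx3 rose by 0.89 (adjusted p = 3.54e-05) and Nkx2-5 by 0.46 (adjusted p = 0.0120) in C3H against C57Bl/6. Tbx3 (0.63, adjusted p = 0.0586), Cacna1g (0.48, adjusted p = 0.117), Cntn2 (0.24) and Cacna1d (0.05) did not pass in that contrast. Of 10 tested endothelial markers, Cdh5, Cldn5 and Esam fell in C3H against C57Bl/6 (8.4% of all genes were lower). Pecam1 (-0.68), Tie1 (-0.54), Kdr (-0.41), Tek (-0.40) and Emcn (-0.12) were also lower in C3H but did not pass. Eng differed by 0.28 (adjusted p = 0.104) and Vwf by 0.04 (adjusted p = 0.910). With limma, 7 of the 10 had an unadjusted p under 0.05, and the median difference was -0.43, beside -0.02 over all genes. The summed endothelial signal was 13.71 to 14.21 in B6C3F1, 13.64 to 14.03 in C3H and 13.99 to 14.24 in C57Bl/6 hearts, with overlap. Of 9 tested smooth muscle and pericyte markers, 1 was higher in C3H than in C57Bl/6 (7.25% of all genes) and 1 lower (8.4%). Abcc9, the regulatory subunit of KATP channels, rose by 0.76 (adjusted p = 7.47e-06), and the brightest set of Rgs5 fell. The median difference of these markers was 0.05, beside -0.02 over all genes. The summed signal of that list was 15.88 to 16.10 in B6C3F1, 15.85 to 16.31 in C3H and 15.86 to 15.96 in C57Bl/6 hearts, with overlap. In B6C3F1 against C3H, 3.58% of all genes were higher and 2.62% lower. There Cdh5 rose by 0.70 (adjusted p = 0.00666), Cldn5 by 0.58 (adjusted p = 0.0406) and the brightest set of Rgs5 by 0.36 (adjusted p = 0.00859). Myl4 fell by 0.78 (adjusted p = 0.00169), the brightest set of Tbx3 by 0.91 (adjusted p = 0.0153), Irx3 by 0.48 (adjusted p = 0.0262) and Abcc9 by 0.35 (adjusted p = 0.031). No other tested marker of these 4 lists passed there. The part of these cell types in the Kcnj3 values was not tested.

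Genes of the steps between the muscarinic receptor and the GIRK channel were compared next. Of 19 listed genes 16 were measured and tested, and Gng5 and the receptor genes Chrm2 and Adora1 were not analysed here. Between C3H and C57Bl/6, 1 was higher (7.25% of all genes) and 2 were lower (8.4%), and the median difference was 0.09 beside -0.02 over all genes. Rgs6, a regulator that shuts off the G protein acting on GIRK channels in mouse heart, fell by 1.41 ± 0.21 in C3H (adjusted p = 7.49e-05). It averaged 8.02 ± 0.53 in B6C3F1, 7.09 ± 0.15 in C3H and 8.50 ± 0.27 in C57Bl/6 hearts, and B6C3F1 was higher than C3H by 0.93 (adjusted p = 0.0107). Its second, dim probe set differed by -0.37 (adjusted p = 0.754). Gnb5, the G protein subunit that Rgs6 binds, differed by -0.28 (adjusted p = 0.196).

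Of the other regulators, Rgs3 rose by 0.56 in C3H against C57Bl/6 (adjusted p = 0.0335), while its 3 other sets differed by 0.45, 0.10 and 0.14, in the same direction, and did not pass. Rgs5, a regulator abundant in pericytes, fell by 0.40 in its brightest set (adjusted p = 0.00134), and its other sets differed by -1.15 (adjusted p = 0.000136), -0.21 (adjusted p = 0.620) and 1.09 (adjusted p = 1.62e-06), so that 3 of 4 sets were lower in C3H and the fourth was higher. In B6C3F1 against C57Bl/6, 1 gene was higher (2.06% of all genes) and 1 lower (1.77%). Gnai2, an inhibitory G protein alpha subunit, rose by 0.41 (adjusted p = 0.0394), with a second set at -0.04, and Gnb2, a beta subunit, fell by 0.33 (adjusted p = 0.0410). Against C3H, 2 genes were higher in B6C3F1 hearts (3.58% of all genes) and 2 lower (2.62%): Rgs6 and Rgs5 rose, Rgs5 by 0.36 (adjusted p = 0.00859) with another set at -0.47 (adjusted p = 0.0467 over all probe sets), while Gnb2 fell by 0.32 (adjusted p = 0.0338) and Rgs2, whose 5 C3H hearts varied with an SD of 0.86, fell by 1.03 (adjusted p = 0.0362).

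**Figure D5:**
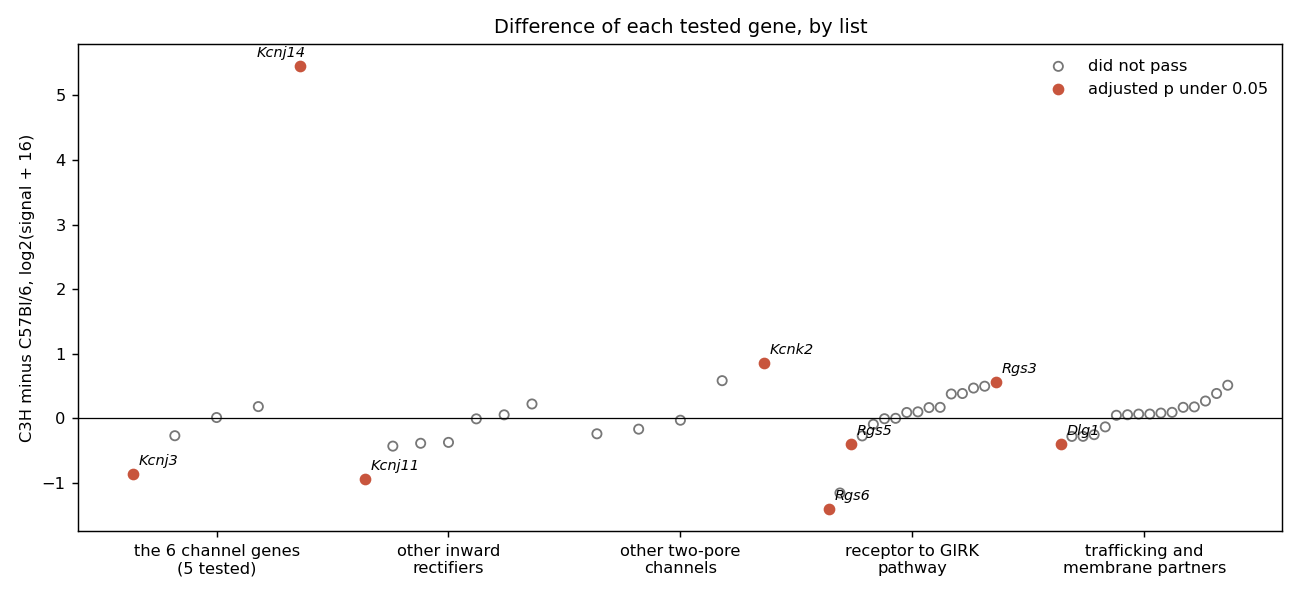
Difference of each tested gene between C3H and C57Bl/6 in log2(signal + 16), in 5 lists, sorted within each; filled points passed at an adjusted p under 0.05 and are named. Kcnj14, at 5.46, lies far from every other gene shown, of which the rest lie between -1.41 and 0.86.

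Kcnk3, the TASK-1 gene, varied little. Its brightest probe set, 1425341_at, gave 12.72, 12.67, 12.73, 12.75 and 12.46 in B6C3F1 hearts, and 12.64, 12.77, 12.95, 12.77 and 12.80 in C3H hearts. In C57Bl/6 hearts it gave 12.61, 12.81, 12.55, 12.57 and 12.51. The groups overlapped, and the spread within strains (SD 0.11) was at the 5.12th percentile of all tested genes. The differences were 0.18 ± 0.08 for C3H against C57Bl/6 (95% interval 0.0028 to 0.36, adjusted p = 0.172), 0.06 ± 0.08 for B6C3F1 against C57Bl/6 (adjusted p = 0.752) and -0.12 ± 0.08 for B6C3F1 against C3H (adjusted p = 0.469). The C3H signal was 1.13 of the C57Bl/6 signal on this scale. Its other sets, 1426058_a_at and 1425342_a_at, differed by 0.23 (adjusted p = 0.472) and 0.60 (adjusted p = 0.262) between the inbred strains, in the same direction. They followed the brightest set within strains at correlations of 0.50 and 0.47. The genes most like Kcnk3 were Pstk (r 0.91), Ube3b (0.89) and Smarcd3 (0.89).

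Relatives of these channels were compared in the same way. Of the 10 other inward rectifier genes, all on the array, 7 were tested and 1 passed between C3H and C57Bl/6, against 15.7% of all genes. Kcnj11, the pore of the KATP channel that opens when ATP falls, averaged 10.79 ± 0.056 in B6C3F1, 10.27 ± 0.24 in C3H and 11.21 ± 0.19 in C57Bl/6 hearts, and fell by 0.94 in C3H against C57Bl/6 (adjusted p = 5.92e-06). Kcnj8, the other KATP pore gene, differed by 0.05 (adjusted p = 0.785). The remaining tested genes, Kcnj6, Kcnj9, Kcnj10, Kcnj13 and Kcnj15, had means between 5.50 and 6.63 in every strain, near the dim limit, and none passed. The list's median difference was -0.38, beside -0.02 over all genes.

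Of the other two-pore channel genes 11 were on the array, 5 were tested and 1 passed between C3H and C57Bl/6, again against 15.7% of all genes. Kcnk2, which codes for the stretch-sensitive channel TREK-1, averaged 7.0 ± 0.23 in B6C3F1, 7.69 ± 0.55 in C3H and 6.83 ± 0.098 in C57Bl/6 hearts. It rose by 0.86 ± 0.23 in C3H against C57Bl/6 (adjusted p = 0.0127), and B6C3F1 differed from C3H by -0.69 (adjusted p = 0.0813). Kcnk6, the gene of TWIK-2, differed by -0.17 (adjusted p = 0.456). Of 18 trafficking and membrane partners 16 were tested, and 1 was lower in C3H than in C57Bl/6, where 8.4% of all genes were lower. Dlg1, a scaffold protein that binds Kir2 channels, fell by 0.40 in C3H (adjusted p = 0.00146), with a second set at -0.89 (adjusted p = 0.0170 over all probe sets). Cav3, the muscle caveolin, differed by 0.17 (adjusted p = 0.282), and S100a10, a partner of TASK-1, by 0.51 (adjusted p = 0.104).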

How the data were processed

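Heart apex RNA (50 ng) from 15 mice was labelled in a two-cycle reaction and hybridised to Affymetrix mouse arrays, per the labels' protocols. The deposited values are log2 values of 1 signal per probe set, made with MAS5 per the submitters' processing notes, of which no version is given in the sources used here. The log2 step and the scaling were read from the values (linear 2% trimmed mean 500.26 to 500.28 on each array). No detection calls were used, and the number of arrays limits the precision. Of 45096 probe sets, 64 are controls, 34940 have 1 symbol, 932 several and 9160 none in the annotation used, and those with several or none were left out of the gene tests. Values were converted back to linear signals before log2(signal + 16) was taken. All 15 arrays entered 1 fit in limma 3.58.1 (R 4.3.3, lmFit, eBayes with trend), also with each of 45032 probe sets as a feature of its own and no brightness limit. The procedure was tested on simulated data. The members, lists and alternatives were chosen with earlier results of these data known. Genes named were the 6 members, listed relatives and partners that passed, the 3 genes most correlated with each tested member, and neighbours that passed; others named as examples were chosen after their values were seen. Alternatives covered the added constant, brightness limit, normalization, probe set choice, eBayes settings, strains in the fit, the replicate block, RNA quality covariates, array weights and leaving out each array.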

Additional observations from a re-analysis of the deposited data

Results flagged for a closer look

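Among 36 groups of 5 arrays (12 probe sets in 3 strains), 3 held an array far from its nearest neighbour by Dixon's ratio at the 95% critical value of 0.71, where chance gives about 1 in 20. Kcnj5 1441590_at in B6C3F1 replicate 1 was 10.22, against 9.59 to 9.68 in the other 4 hearts (ratio 0.862). Kcnk3 1425341_at in B6C3F1 replicate 5 was 12.46, against 12.67 to 12.75 (ratio 0.714). Kcnj12 1422871_at in C57Bl/6 replicate 5 was 6.88, against 7.62 to 7.91 (ratio 0.711). None of these genes passed in any contrast with or without the array.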

How the results depend on the processing

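The number of channel genes that passed was 2 for C3H against C57Bl/6, 1 for B6C3F1 against C57Bl/6, 2 for B6C3F1 against C3H and 1 against the parental mean under every alternative run, also without any 1 of the 15 arrays. The calls of Kcnj14 and Kcnj3 held in all of them, with C3H minus C57Bl/6 at 4.59 to 5.94 for Kcnj14 and -0.95 to -0.77 for Kcnj3. No other channel gene passed under any. Throughout, Kcnj14 and Kcnj3 were each read from the same probe set, so these calls could not respond to probe set choice. With every probe set tested, Kcnj3 1444025_at passed between C3H and C57Bl/6 in 2 of 27 fits, and 1421468_at and 1444336_at in 0. With the replicate number as a block, Kcnj14 differed by 5.46 (adjusted p = 2.57e-11) and no call of these genes changed. Of 15 same-numbered pairs of arrays 2 correlated above 0.1 in their residuals (-0.06 to 0.13). The replicate numbers only follow the sample order within each strain, so these correlations cannot show whether mice were handled in pairs. When arrays were centred on their medians, the median C3H minus C57Bl/6 difference of all genes was 0.08, against -0.02, and the calls over all genes were 1277 higher and 620 lower, against 951 and 1101. Signs turned only for differences far from the threshold, and for Kcnj14 against the parental mean taken on the linear scale (-0.54, no test). For C3H minus C57Bl/6, Kcnj2 was 0.0154 after quantile normalization, 0.10 after centring, 0.00040 with the Gapdh covariate and -0.0846 to 0.0407 over the arrays left out. Kcnj12 was -0.28 with the poly-A covariate and -0.17 to 0.13 over the arrays left out. Kcnj5 in B6C3F1 minus C3H ranged over -0.22 to 0.0442, and Kcnk3 against the parental mean over -0.0538 to 0.0179. The cause was not tested.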
